A study of Mus musculus with 4 samples.

Results

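The genes described here are 61 interleukins, colony-stimulating factors and their receptors, of 908 genes that could be named on the array. They were taken by symbol: names that begin with Il and a digit, with Tnf, or with Csf1, Csf2 or Csf3. Of 81 such genes, 20 were left out by name: the interleukin 6 group with Il11, Il31ra and the Il6 receptor chains, the Il33 and interleukin 1 group with Il18, and the interleukin 4 and 13 chains with Il2rg. The 61 comprised 27 ligands and 34 receptors. No gene with a Tnf symbol was among the named probe sets (0 of 61), so none is described here. Of all 1246 probe sets 284 had no symbol and could not be searched, and tumour necrosis factor ligands with other names fall outside the rule. A gene was represented by its probe set with the highest mean, and 4 genes had a second one.

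RNA came from cultured mouse vascular smooth muscle cells (VSMC), the muscle cells of the vessel wall. All 4 arrays were of wild-type cells in osteogenic medium, a medium used to turn such cells towards a bone-like state. On 2 arrays the cells had also received 0.4 mM streptozotocin (STZ, written stroptozotocin in the labels), a sugar-linked nitrosourea used to destroy pancreatic beta cells, and the other 2 were controls. Each arm had 1 array of the cell sample named WT2 (replicate 1) and 1 of the cell sample named WTA (replicate 2), here called cultures. The labels do not say whether these are separate animals, so p-values describe these samples only, and the spread behind them may be technical. In the fit of treatment alone it is the spread between the cultures within each arm. In fits with treatment and culture it is how far the treatment difference disagrees between the cultures. No meaning was read into the "3w" of the sample names, the animals' age is not given in the sources used here, and the Runx2 knockout cells of the design text were not analysed here.

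Interleukins and colony-stimulating factors are secreted proteins through which leukocytes and tissue cells signal to each other. Most act through receptors of several chains, in which a private chain binds the ligand and a shared chain, such as the common gamma chain, the common beta chain, IL-10RB or IL-17RA, carries the signal. In the vessel wall, smooth muscle cells respond to such signals and are themselves a source of some, among them macrophage colony-stimulating factor (Csf1), which keeps macrophages alive.

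Values are log2 signals per probe set, and the median over all 1246 probe sets was 5.86. Probes bind their targets with unequal strength, so values of different genes are not amounts that can be set against each other. A value near the table's low end of 2.09 may be background. Array medians ran from 5.83 to 5.87, and correlations between arrays from 0.977 to 0.997. The control array of WT2 stood apart most, with 0.977 and 0.982 against the WTA arrays. It held the lowest of the 4 values for 9 of the 17 members above the median (52.9%) and for 28.4% of all 623 probe sets above it. Of 7 smooth muscle markers 0 were measured, so the labelled cell type could not be checked. Of 24 leukocyte and macrophage markers 11 were measured, with list means of 4.49 to 4.59 over the arrays, and the macrophage marker Adgre1 lay between 2.79 and 3.16. The 4 fibroblast markers measured had list means of 10.54 to 11.34 and the 6 endothelial ones of 5.99 to 7.18.

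Most members gave weak signals. Of the 61, 17 (27.9%) had a mean above the median of all probe sets, against 500 of 847 other named genes (59%). The share was 6 of 27 ligands (22.2%) and 11 of 34 receptors (32.4%). Each family except the last pair of genes had a receptor chain above the median beside others below it. The spread over the 4 arrays had a median of 0.63 for the 17 members above the median, against 0.39 for all probe sets above it, and of 0.19 for the 44 at or below it, against 0.20 for all such probe sets.

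**Figure D1:**
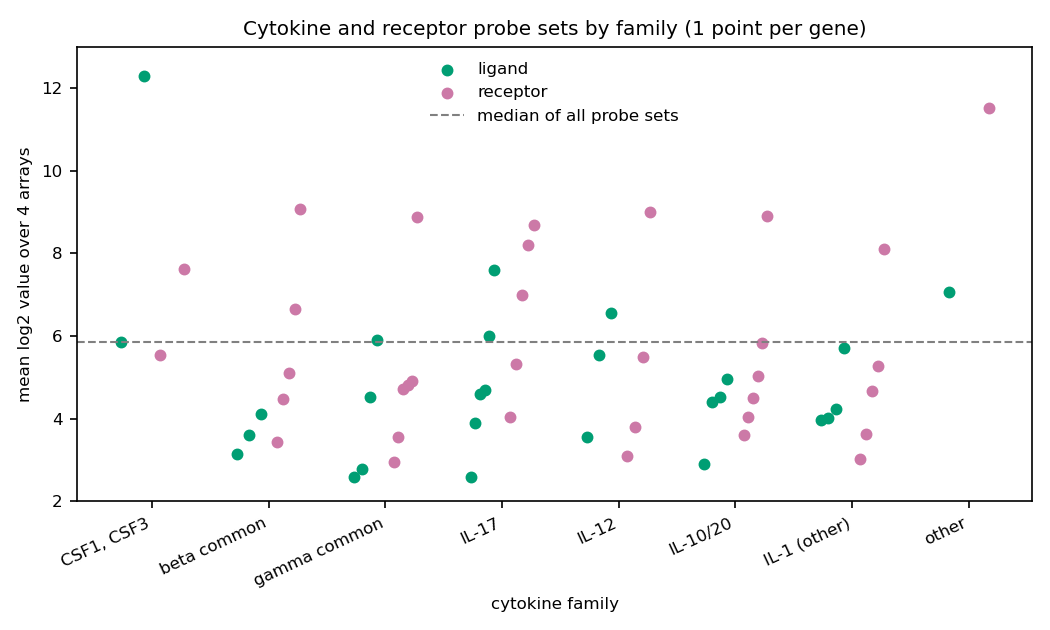
Mean log2 value over the 4 arrays (vertical axis) of the 61 genes, 1 point per gene, by cytokine family (horizontal axis), with ligands and receptors in separate colours and a dashed line at the median of all probe sets, 5.86. Of the points, 17 lie above the line, and heights of different genes are signals, not amounts.

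Among the macrophage and granulocyte growth factors, Csf1 gave values of 11.98 to 12.56, in the top of the table (98.6th percentile of all probe sets). Its receptor gene Csf1r, otherwise typical of macrophages, was measured at 7.4 to 7.92. Csf3, the granulocyte factor, lay at the median, from 5.76 to 5.91, and its receptor gene Csf3r between 5.05 and 6.0.

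In the beta common chain family, the ligand genes Il3 (mean 3.13), Il5 (4.10) and Csf2 (3.59), the last coding for granulocyte-macrophage colony-stimulating factor, were all low. The private receptor chains Il3ra (9.08) and Csf2ra (6.66) lay above the median, and Il5ra (3.44) did not. The shared chain Csf2rb had a mean of 4.47 and its close copy Csf2rb2, a mouse chain for interleukin 3, one of 5.10; the probes may not separate these copies.

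In the common gamma chain family, which serves lymphocytes, Il15 (5.89) and its private receptor chain Il15ra (8.88) lay above the median and the other 8 members below it. The latter were the ligand genes Il2 (2.77), Il7 (4.52) and Il21 (2.59) and the receptor genes Il2ra (3.54), Il2rb (4.71), Il7r (2.94), Il9r (4.80) and Il21r (4.91). Il2rb is the chain that passes on the signal of interleukin 15 together with the common gamma chain, and the gene of the latter, Il2rg, had a mean of 5.43. Neither reached the median. Il15 exceeded it only through the WTA arrays, as its WT2 values (4.82 and 5.64) lay below it.

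The interleukin 17 family had 5 of 11 members above the median. Il17ra, the shared chain, stood at 8.20 and Il17rc, its partner in the receptor for interleukin 17A and 17F, at 8.68. Il17rd, also called Sef, which dampens fibroblast growth factor signalling, stood at 7.0. Il17rb (4.04) and Il17re (5.31), the chains for interleukin 25 and 17C, were below the median. Of the ligands, Il17d (7.59) and Il17b (6.01) were above it, and the lymphocyte products Il17a (2.58) and Il17f (3.90), with Il17c (4.59) and Il25 (4.68), were not.

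In the interleukin 12 family, Il27ra, the private chain of the interleukin 27 receptor, had a mean of 9.0 and Il27, which codes for 1 subunit of its ligand, one of 6.56. Il12a (5.55), Il23a (3.56), Il12rb1 (5.50), Il12rb2 (3.79) and Il23r (3.09) lay below the median. In the interleukin 10 and 20 family, Il10rb, the chain shared by several receptors, was above the median with 8.90. The other 9 members were below it: Il10 (4.40), Il19 (4.51), Il20 (4.96) and Il22 (2.90), and the receptor genes Il10ra (5.84), Il20ra (4.49), Il20rb (4.03), Il22ra1 (5.04) and Il22ra2 (3.61), the last a soluble antagonist of interleukin 22.

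Of the interleukin 1 family members that are not left out, Il1r2, a decoy receptor that captures interleukin 1 without signalling, stood above the median with 8.11. The interleukin 36 genes, listed under their older symbols Il1f5 (5.70, the antagonist), Il1f6 (4.23), Il1f8 (4.01) and Il1f9 (3.97), and their receptor gene Il1rl2 (5.26) were below it. So were Il18r1 (3.01) and Il18rap (4.67), the chains of the interleukin 18 receptor, and Il1rapl2 (3.63). Outside these families, Il16, a chemoattractant for T cells, had a mean of 7.07. Il11ra2 had one of 11.53, from a probe set marked as shared between transcripts; its near-identical copy Il11ra1 was not among the named probe sets, so the signal may belong to either.

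**Figure D2:**
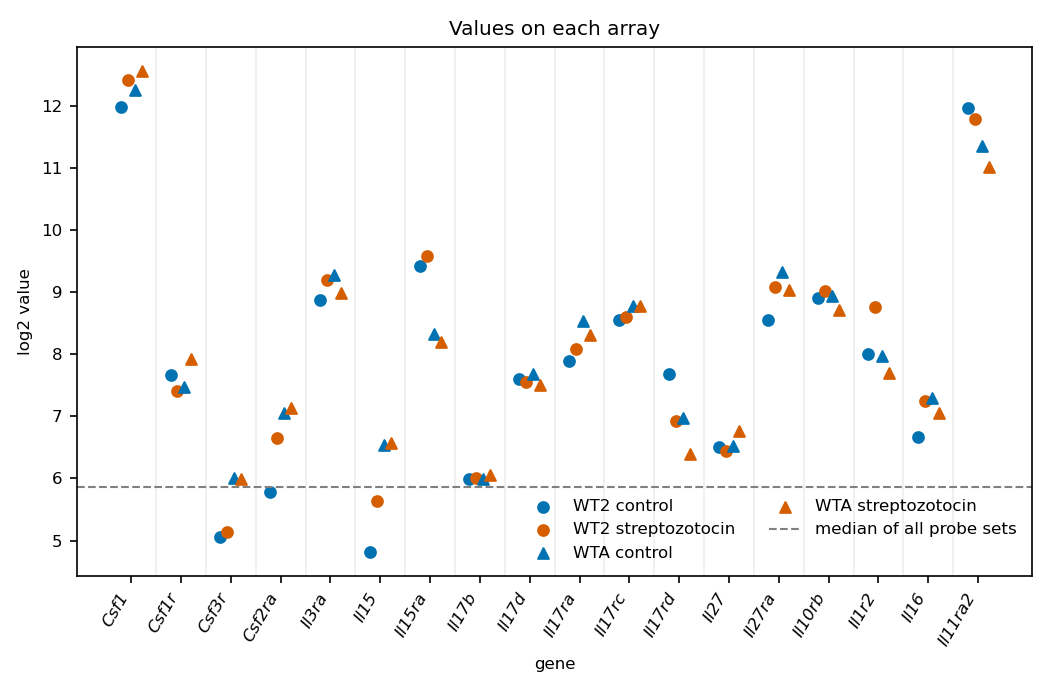
Log2 value (vertical axis) on each of the 4 arrays for the 17 members above the median and Csf3r (horizontal axis), with circles for WT2, triangles for WTA, blue for control and orange for streptozotocin. Il15, Il15ra, Csf2ra and Csf3r show the cultures apart, and in Il17rd both orange points lie below both blue ones.

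The first comparison set streptozotocin against control, in cells kept in osteogenic medium. By limma's moderated test 0 of the 61 members passed an adjusted p of 0.05, as did 0 of 1246 probe sets (0%). At an unadjusted p under 0.05 there were 0 members in this fit, against 25 of 1246 probe sets. With the replicate number as a block there were 2 of 61, Il17rd and Csf1, against 80 of 1246 probe sets. The smallest adjusted p of a member with the block was 0.585 (limma). The median difference over the members was 0.03 on the log2 scale, from -0.67 to 0.48, and that over all probe sets was -0.01. Among the 44 members at or below the median, differences ran from -0.19 to 0.31.

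Il17rd had the largest difference among the members. Its log2 value was 7.68 in control and 6.93 in treated WT2 cells, and 6.98 in control and 6.39 in treated WTA cells. Both treated values lay below both control values, although treated WT2 and control WTA were only a little apart. The mean was 6.66 ± 0.39 with streptozotocin and 7.33 ± 0.49 without (SD, n = 2 each), a difference of -0.67 (SE 0.34, 95% confidence interval -1.64 to 0.29, limma adjusted p = 1), or 1.59-fold lower. By culture it was -0.75 (WT2) and -0.60 (WTA). The interval is from the fit without a block, whose spread includes the difference between the cultures. With the replicate number as a block the SE was 0.10 (limma unadjusted p = 0.0034, adjusted p = 0.585). Leaving out each array in turn, without a culture term, the difference ran from -1.02 to -0.32, which also holds the culture difference. All 4 fibroblast markers were lower with streptozotocin in both cultures too, as were 32.3% of all probe sets above the median. The fibroblast list mean was 10.76 against 11.34 in WT2 and 10.54 against 10.86 in WTA. Of the 6 endothelial markers measured, 3 were higher in both cultures and 1 lower in both. With no smooth muscle marker measured, the fibroblast markers cannot tell fibroblasts from smooth muscle cells here. The part of cells with these markers in the Il17rd difference was not tested. In bulk RNA fewer cells of a type and less RNA per cell cannot be told apart. Of the genes of fibroblast growth factor signalling listed beside Il17rd, Fgfr1 differed by -0.11 and Fgf18 by -0.52, and Fgf2 differed by 0.26; none passed the test. Of the whole list of 14 signalling partners 4 were measured, these 3 and Il2rg, and 0 passed. Of 7 interferon and interferon receptor genes 6 were measured and 0 passed. By culture Fgf18 gave -0.62 (WT2) and -0.43 (WTA), and Fgf2, the other way, 0.35 and 0.18. With the block the limma unadjusted p of Fgf18 was 0.00928 (adjusted p = 0.608), so Il17rd was not alone in this pattern.

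Csf1 was the other member with an unadjusted p under 0.05 in the fit with the block. The treated arrays read 12.42 (WT2) and 12.56 (WTA), the control arrays 11.98 and 12.26, so the groups did not overlap. The means were 12.49 ± 0.09 and 12.12 ± 0.19 (SD, n = 2 each), a difference of 0.37 (SE 0.14, interval -0.02 to 0.77, limma adjusted p = 1), or 1.29-fold. By culture it was 0.44 (WT2) and 0.30 (WTA). Leaving out each array in turn, without a culture term, gave 0.23 to 0.51, which also holds the culture difference. With the block the SE was 0.10 (limma unadjusted p = 0.0233, adjusted p = 0.709). The second probe set of Csf1 read 11.28 and 11.46 with streptozotocin and 10.98 and 11.36 without. There the groups overlapped, and the difference was 0.29 in WT2 and 0.09 in WTA. Csf1r went opposite ways, with 7.4 against 7.66 in WT2 and 7.92 against 7.47 in WTA.

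Over all members, both treated arrays lay above both controls for 7 of 61 (11.5%) and below them for 5 (8.20%). Among all probe sets the shares were 10.8% and 13.8%, so the members' shares were near the background. Besides Csf1, the higher 7 were Il17b, Il19, Csf2rb, Il1f8, Il1rapl2 and Il22. Besides Il17rd, the lower 5 were Il17d, Il5, Il22ra2 and Il23a. Of these 12, Il17rd reached a difference of 0.58 (1.5-fold) in a culture and the others did not. Apart from Csf1 and Il17rd the largest single differences were 0.53 for Csf2rb in WT2 and 0.40 for Il1f8 in WTA.

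The sequences before the start sites of Csf1 and Il17rd are shown because these were the 2 members with an unadjusted p under 0.05 in the fit with the replicate block. They are the 250 bases up to the start, 5′ to 3′ on the gene's strand, from RefSeq (GRCm38.p6). Capitals mark the GC box GGGCGG, a motif bound by Sp1-type factors, on either strand.
Csf1, chr3:107760470-107760719, minus strand: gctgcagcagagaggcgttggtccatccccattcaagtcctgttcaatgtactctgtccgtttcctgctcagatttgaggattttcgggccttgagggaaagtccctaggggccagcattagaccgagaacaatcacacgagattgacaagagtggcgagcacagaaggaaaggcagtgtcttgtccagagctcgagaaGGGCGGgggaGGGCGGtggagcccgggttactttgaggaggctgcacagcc
Il17rd, chr14:27038751-27039000, plus strand: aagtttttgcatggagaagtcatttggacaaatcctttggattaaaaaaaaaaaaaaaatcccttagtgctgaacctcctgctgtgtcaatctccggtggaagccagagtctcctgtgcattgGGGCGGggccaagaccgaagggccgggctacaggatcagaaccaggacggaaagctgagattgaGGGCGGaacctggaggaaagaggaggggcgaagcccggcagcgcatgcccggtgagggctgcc
Each holds 2 matches. Of 32851 promoter windows of that length, 32.7% held at least 1. Neither held the TATA box TATAAA (12.4% of windows) or the gamma-activated site TTCNNNGAA of STAT factors (7.02%), searched on both strands. The matches are a description of the letters and were not tied to the array values.

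Within the cultures, with 1 array per arm and no test, 3 of the 17 members above the median were at least 1.5-fold higher with streptozotocin in WT2 (17.6%, against 8.51% of all probe sets above the median) and 0 in WTA (against 1.12%). These were Il15, Csf2ra and Il1r2. Of all 61 members they made up 4.92%, against 4.82% of all probe sets, so that share was near the background. Both WT2 values of Il15 lay below the median, and it is among the 17 only through its WTA arrays. Il17rd was the 1 member at least 1.5-fold lower in WT2 (5.88%, against 3.69%) and also in WTA (5.88%, against 2.89%). 

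Il15 and Csf2ra shared 1 pattern over the arrays. Il15, whose product supports natural killer and memory T cells, read 4.82 in control and 5.64 in treated WT2 cells but 6.54 and 6.57 in WTA cells. Csf2ra, the private receptor chain for Csf2, read 5.78 and 6.65 in WT2 and 7.06 and 7.14 in WTA. In both the control array of WT2 was the lowest of 4 and the treated WT2 array lay between it and the WTA arrays. The differences were 0.81 (Il15) and 0.87 (Csf2ra) in WT2 and 0.03 and 0.08 in WTA. With the control array of WT2 left out the fits gave -0.43 and -0.16, and without the treated WTA array Il15 gave -0.04. These fits had no culture term, so their values also hold the difference between the cultures and do not show that the treatment difference reversed. Csf2rb2 read 4.77 and 5.07 in WT2 and 5.22 and 5.32 in WTA, which is the same order at a low signal. Csf2, the ligand gene, lay between 3.46 and 3.68 on all arrays.

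Il1r2, Il16 and Il27ra had opposite signs in the cultures. Il1r2 read 8.76 in treated and 8.0 in control WT2 cells, and 7.69 and 7.97 in WTA. Here the treated WT2 array was the high one and the other 3 lay close together. Il16 read 7.24 and 6.67 in WT2 and 7.05 and 7.30 in WTA, and Il27ra 9.08 and 8.55 in WT2 and 9.04 and 9.33 in WTA. For both the control array of WT2 was the low one. Over all 61 members 37 (60.7%) had opposite signs, 15 (24.6%) were higher in both cultures and 8 (13.1%) lower in both. Of all probe sets 47.7% had opposite signs, 22.6% were higher in both and 28.5% lower in both. A test of the difference between cultures could not be made, since 4 arrays leave no residual degrees of freedom for it.

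**Figure D3:**
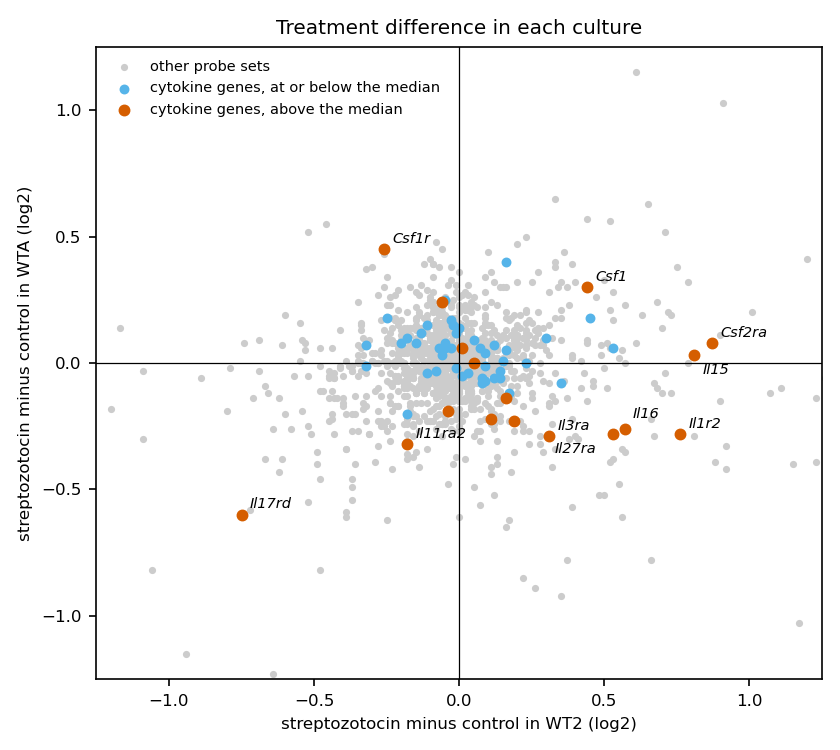
Streptozotocin minus control on the log2 scale in WT2 (horizontal axis) and in WTA (vertical axis), 1 point per probe set, with members above the median in orange, other members in blue and all other probe sets in grey. The limits of the axes leave out 26 grey points. Il17rd lies at -0.75 and -0.60 and Csf1 at 0.44 and 0.30, while Il15, Csf2ra and Il1r2 spread along the WT2 axis.

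The second comparison asked how far WTA cells differ from WT2 cells, with treatment kept as a term. By limma 2 of 61 members passed an adjusted p of 0.05 (3.28%), Il15ra and Csf3r, against 28 of 1246 probe sets (2.25%). At an unadjusted p under 0.05 there were 9 members (14.8%) and 210 probe sets (16.9%). The members' shares were thus near the background. These p-values rest on 1 residual degree of freedom and describe 2 named cell samples, not kinds of cells.

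Il15ra, the chain that presents interleukin 15 to neighbouring cells, was lower in WTA. It read 9.42 and 9.58 in WT2 and 8.33 and 8.19 in WTA (control first), so treatment moved it little within either culture. WTA minus WT2 was -1.24 (SE 0.12, interval -1.59 to -0.90, limma adjusted p = 0.0445), or 2.37-fold. The second probe set of Il15ra gave 8.0 and 8.28 in WT2 and 7.16 and 7.16 in WTA, a difference of -0.98 (limma adjusted p = 0.0616), and the mean of both probe sets one of -1.11 (adjusted p = 0.0482). Il15, its ligand, ran the other way: WTA minus WT2 was 1.32 (SE 0.22, interval 0.69 to 1.96, limma adjusted p = 0.0993), or 2.50-fold, with all WTA values above all WT2 values. That difference did not pass the test.

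Csf3r, the receptor of the granulocyte factor, was higher in WTA. It read 5.05 and 5.13 in WT2 and 6.0 and 5.99 in WTA, again with the control first. The difference was 0.91 (SE 0.10, interval 0.63 to 1.18, limma adjusted p = 0.0474), or 1.87-fold. Its mean of 5.54 was below the median of all probe sets. Csf3 itself differed by 0.05.

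Both calls sit close to the threshold. After quantile normalization the adjusted p was 0.0695 for Il15ra and 0.0775 for Csf3r. In a fit on the 623 probe sets above the median, which keeps Il15ra and drops Csf3r, Il15ra did not pass. In fits with culture alone, where 1 array could be left out, limma gave Il15ra 0.0639 without the treated WT2 array, 0.0725 without the WT2 control, 0.532 without the treated WTA array and 0.443 without the WTA control. The same 4 fits gave Csf3r 0.0639, 0.0841, 0.532 and 0.443. The sizes changed little, from -1.32 to -1.16 for Il15ra and from 0.86 to 0.95 for Csf3r. Without the treated WT2 array Il15 (adjusted p = 0.029) and Csf2ra (0.0458) passed instead. 

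**Figure D4:**
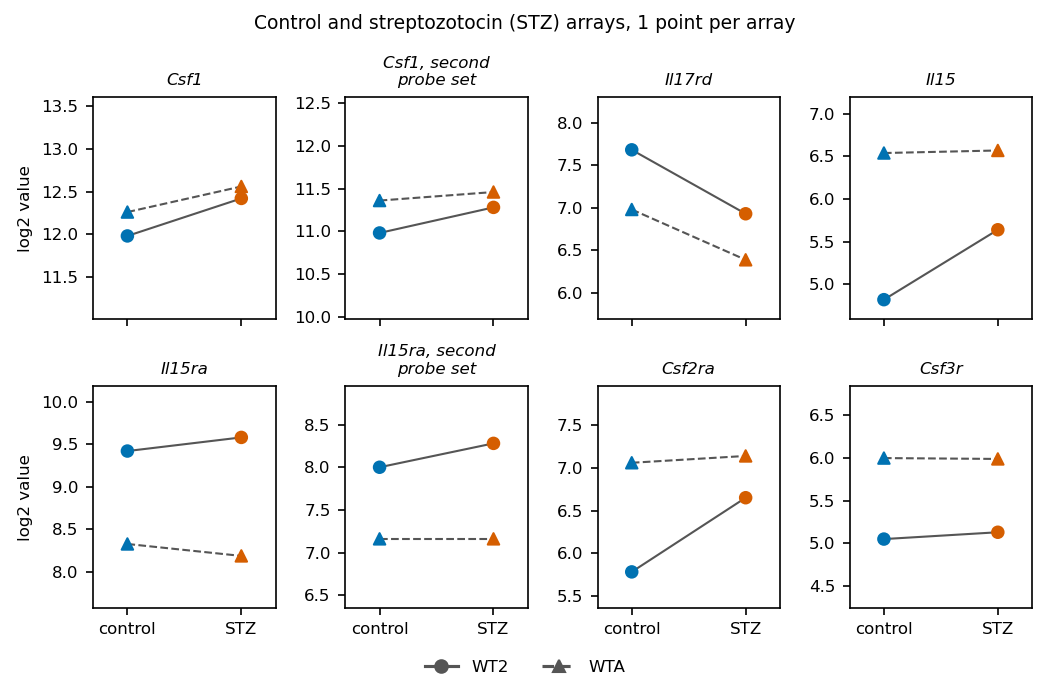
Log2 values (vertical axes, each spanning the same range) on the control and the streptozotocin (STZ) array of each culture, for Csf1 and Il15ra with their second probe sets and for Il17rd, Il15, Csf2ra and Csf3r, with 1 point per array, circles and full lines for WT2 and triangles and dashed lines for WTA. The lines slope up in both cultures for Csf1 and down for Il17rd, while for Il15ra and Csf3r the lines of the cultures lie apart.

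The sequences before the start sites of the 2 members past this test are shown as above, for Il15ra at the first of its 2 listed starts. They hold none of the 3 motifs, which says only that those letters are not in these windows.
Il15ra, chr2:11705043-11705292, plus strand: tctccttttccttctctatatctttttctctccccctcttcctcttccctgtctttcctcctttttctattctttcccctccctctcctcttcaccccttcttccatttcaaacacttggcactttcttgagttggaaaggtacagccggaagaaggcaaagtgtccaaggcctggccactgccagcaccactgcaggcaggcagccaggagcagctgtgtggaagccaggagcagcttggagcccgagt
Csf3r, chr4:126024409-126024658, plus strand: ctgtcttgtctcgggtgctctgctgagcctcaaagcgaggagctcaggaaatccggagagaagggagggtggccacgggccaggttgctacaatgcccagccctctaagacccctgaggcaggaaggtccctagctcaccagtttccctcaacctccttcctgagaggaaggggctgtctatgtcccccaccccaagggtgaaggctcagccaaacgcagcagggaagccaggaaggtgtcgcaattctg

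Of the other members, Csf2ra was higher in WTA by 0.88 (SE 0.22, limma adjusted p = 0.187) and Il17ra by 0.44 (SE 0.14, adjusted p = 0.266). Il17ra read 7.89 and 8.08 in WT2 and 8.54 and 8.31 in WTA (control first), with both WTA values above both WT2 values. Its ligand gene Il17a lay between 2.52 and 2.64 on all arrays. For Il17rd WTA minus WT2 was -0.62 (SE 0.10, adjusted p = 0.0959). Il11ra2 read 11.96 and 11.78 in WT2 and 11.35 and 11.02 in WTA, a difference of -0.69 (SE 0.10, adjusted p = 0.0804). None of these passed. Among the 17 members above the median, both WTA values lay above both WT2 values for 5 (29.4%, against 25% of all probe sets above the median) and below them for 3 (17.6%, against 33.1%). The 5 were Il15, Csf2ra, Il17ra, Il17rc and Il27, and the 3 Il15ra, Il11ra2 and Il1r2. Il15 is among the 17 only through its WTA values, so its place in this count is not independent of the filter. Over all 61 members the shares were 21.3% above and 21.3% below, against 21.3% and 27.7% of all probe sets. Il27 read 6.50 and 6.44 in WT2 and 6.53 and 6.77 in WTA, so the cultures lay close together. Il17d and Il17b, the 2 ligand genes of the interleukin 17 family above the median, differed by 0.01 and 0.03 between the cultures.

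The endothelial marker list differed between the cultures too, with means of 5.99 and 6.18 in WT2 and 7.04 and 7.18 in WTA. Esm1 (3.99 and 4.48 against 9.0 and 9.33) carried much of that. Thbd and Selp were also higher in WTA on both arrays, Cd34 was lower, and the defining marker Pecam1 lay between 3.79 and 4.0 on all arrays. By limma Esm1 (adjusted p = 0.00304) and Cd34 (adjusted p = 0.0445) passed the culture test, and the other endothelial markers measured did not. The 11 leukocyte and macrophage markers, of which Csf1r is 1, had list means of 4.57 and 4.49 in WT2 and 4.50 and 4.59 in WTA (control first). Of the 4 fibroblast markers, 0 passed the culture test. Pdgfra differed by -0.82 (limma adjusted p = 0.0631) and Dcn by -0.43, both with the WTA values below the WT2 values, as for Il15ra and Il11ra2. Lum differed by -0.23 and Pdgfrb by 0.08. The part of such cells in the culture differences of the cytokine genes was not tested.

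**Figure D5:**
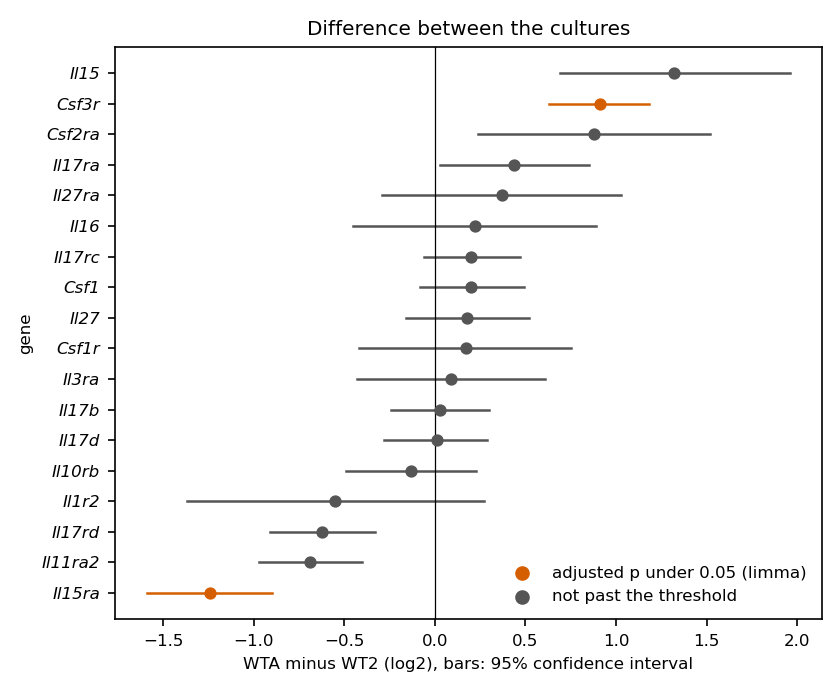
WTA minus WT2 on the log2 scale (horizontal axis) with 95% confidence intervals from limma for the 17 members above the median and Csf3r (vertical axis). Il15ra at -1.24 and Csf3r at 0.91, in orange, passed the adjusted threshold, and Il15 at 1.32 did not.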

How the data were processed

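Trizol was used to extract total RNA, of which 0.5 ug gave biotinylated cRNA for Affymetrix arrays, as the labels' protocols state. Log2 values were deposited for 1246 probe sets on 4 arrays, and the authors obtained them by RMA (tool named in the submitters' processing notes, version not given in the sources used here). That method usually equalises the arrays' distributions, which hides a shift of most genes. The number of arrays limits the precision.

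Probe sets were named by RefSeq accession without version (table of GRCm38.p6, names only): 962 had 1 symbol, for 908 genes, and 284 had none here. Promoter entries existed for 43 of the 61 members.

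Fits used limma 3.58.1 in R 4.3.3 (lmFit, eBayes) on all probe sets, with Benjamini-Hochberg adjustment over 1246 and a threshold of 0.05. Streptozotocin was fitted without a block (2 residual and 1.68 prior degrees of freedom), and culture beside treatment. The titles give 1 replicate number to each named cell sample, so the number marks shared cells; deviations from the group means correlated within numbers (0.60 across probe sets). The code was checked on simulated data that held no culture difference, so the check does not cover the power of the fits on these arrays.

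Members, lists and rules were chosen with earlier results of these data known. All members are named. Array values are given for members past a test, the 8 largest differences of each comparison above the median, and ligand or receptor partners (low ones by their range); further ones are named where a family or count calls for it. Alternatives were the replicate block, 1 array left out, median centring, quantile normalization, a filter at the median, an intensity trend, a threshold of 0.1 and the mean of a gene's probe sets.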

Additional observations from a re-analysis of the deposited data

Results flagged for a closer look

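For 11 of the genes described array by array the streptozotocin difference had opposite signs in the cultures, 1 pair of arrays in each. The difference between cultures was not tested, and a pair that moves little can take either sign. The WT2 difference less the WTA difference was 1.04 for Il1r2, 0.83 for Il16, 0.81 for Il27ra and -0.70 for Csf1r. It was 0.42 for Il17ra, 0.30 for Il15ra, -0.29 for Il27, -0.23 for Csf2, 0.18 for Csf3, -0.11 for Il17a and 0.10 for Csf3r. For Il16, Il27ra, Il17ra, Csf3 and Csf3r the control array of WT2 held the lowest of the 4 values.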

How the results depend on the processing

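With 4 arrays the streptozotocin count was 0 probe sets and 0 cytokine genes under each alternative run: the replicate block, 1 array left out, median centring, quantile normalization, the filter at the median, the intensity trend and a threshold of 0.1. For the cultures limma called 28 probe sets and 2 cytokine genes; 37 and 35 probe sets, with 2 cytokine genes, after median centring and with an intensity trend. It called 13 probe sets with culture alone, 8 probe sets and 0 cytokine genes after quantile normalization, 2 and 0 with the filter (which removes Csf3r and keeps Il15ra, which did not pass there), and 64 and 5 at a threshold of 0.1. With 1 array left out (culture alone, fewer samples) the counts ran from 0 to 18 probe sets and from 0 to 2 cytokine genes. Other causes were not tested.

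Of the 16 genes described, Il17rd and Csf1 kept the sign of the streptozotocin difference in all 4 fits with 1 array left out. The ranges that crossed 0 were -0.16 to 1.11 (Csf2ra), -0.43 to 1.28 (Il15), -0.63 to 0.13 (Il11ra2), -0.29 to 0.78 (Il1r2), -0.16 to 0.48 (Il16), -0.27 to 0.51 (Il27ra), -0.69 to 0.71 (Il15ra), -0.35 to 0.30 (Il17ra), -0.44 to 0.52 (Csf3r), -0.17 to 0.35 (Csf1r), -0.14 to 0.07 (Csf2), -0.05 to 0.10 (Csf3), -0.06 to 0.07 (Il17a) and -0.07 to 0.25 (Il27). Leaving out 1 array unbalances the cultures, so these values also hold the culture difference. For WTA minus WT2 the ranges that crossed 0 were -0.02 to 0.42 (Csf1), -0.07 to 0.51 (Il16), -0.05 to 0.39 (Csf1r) and -0.01 to 0.11 (Csf3). No sign turned under the other alternatives.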
